A study of Caenorhabditis elegans with 30 samples.

Results

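The subject is how far the effect of the daf-2 mutation on gene expression in whole Caenorhabditis elegans depended on histone H3.3. For each gene the daf-2 effect was taken once in worms that lack his-72 and his-71, as log2 of the FPKM value (fragments scaled by transcript length and by mapped fragments) in the daf-2;his-72;his-71 triple mutant over that in the his-72;his-71 double mutant. It was taken again in worms that carry both genes, as log2 of the daf-2 single mutant over wild type (WT, the N2 strain). The alleles were e1370 for daf-2, tm2066 for his-72 and ok2289 for his-71. The first effect less the second is the H3.3 difference. A positive difference means that the daf-2 mutation left the gene relatively higher without H3.3. Genes entered if they were above 0 FPKM in all 4 pools and reached 5 FPKM in at least 1, which held for 12241 of the 20484 genes in the tables. Of the rest, 8169 were under 5 FPKM in all 4 pools and 74 reached 5 FPKM in 1 pool but were listed at 0 in another. At this threshold lgc-35 was just inside, with 5.00 FPKM in its highest pool, and ceh-83 just outside, with 4.99 FPKM.

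All animals were labelled as late fourth-stage larvae from bleach-synchronised populations kept at 20 °C on OP50 bacteria, and RNA was taken from whole worms. The series labels 5 replicates for each genotype, but the deposited tables give 1 FPKM value per gene and genotype. No value below therefore has a replicate spread, an interval or a test, and sequencing depth is unknown. Each gene was mutated by 1 allele. Without H3.3 means here that his-71 and his-72 were deleted in all cells of the animal, while other H3.3-type genes such as his-70 and his-74 were not mutated.

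DAF-2 is the worm's insulin and IGF receptor. Lower DAF-2 signalling frees the FOXO factor DAF-16 to enter the nucleus, where it raises stress defence and metabolic genes, and daf-2 mutants are known for long life, stress resistance and a readiness to enter the dauer larval stage. H3.3 is a histone H3 variant that cells can load onto DNA throughout the cell cycle, not only in S phase, and it is known for its enrichment at active genes and regulatory elements. The comparison asks which of the expression changes that go with low insulin signalling differed in worms that lack his-71 and his-72.

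The transcripts of his-71 and his-72 matched the labels. his-71 (WBGene00001945, chromosome X, 7981381 to 7982070 in the authors' tables) had 0.372 FPKM in the triple mutant, 0.276 in the double mutant, 344 in daf-2 and 303 in WT. his-72 (WBGene00001946, chromosome III, 12367475 to 12369050) had 0.293 FPKM in the triple mutant, 0.408 in the double mutant, 330.1 in daf-2 and 418 in WT. Both were near 0 in the mutants that lack them and high in the other pools. daf-2 (WBGene00000898, chromosome III, 2995763 to 3028800), whose e1370 allele is a point mutation that leaves a transcript, had 21.2 FPKM in the triple mutant, 12.7 in the double mutant, 32.2 in daf-2 and 13.03 in WT, values that cannot check the daf-2 label. Its transcript was 1.67-fold higher in the triple than in the double mutant, and 2.47-fold higher in daf-2 than in WT.

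A daf-2 effect counted as called if its pools differed by a ratio of 2 or more and the higher pool reached 5 FPKM. A rise or a fall below means such a called effect and carries no test. Without H3.3, 1542 genes were called higher in the triple mutant (12.6% of those compared) and 1585 lower (12.9%). With H3.3, 1722 genes were called higher in daf-2 (14.1%) and 1506 lower (12.3%). The daf-2 mutation thus went with about as many called genes in either background, yet many of the genes differed. The H3.3 difference was at least 2-fold upward for 2170 genes (17.7%) and at least 2-fold downward for 1840 (15%). Its median was -0.15, its quartiles were -0.72 and 0.60, and it ran from -6.88 to 15.67 on the log2 scale. Both extremes, F56A4.3 and F13G11.3, rest on pools under 0.1 FPKM. The smallest called difference was 1.0003 (C30F12.5) and the largest uncalled 0.9983 (K07D4.5).

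The upward and downward sides of the difference were unequal in size and in level. Upward differences of 8-fold or more were seen for 816 genes and downward ones for 19. Among the 944 genes whose lowest pool was under 1 FPKM, 789 differed upward and 58 downward, with a median of 4.35. Among the 4522 genes with at least 20 FPKM in all 4 pools, 134 differed upward and 504 downward, with a median of -0.31. This split depends on scale. The summed FPKM was 935102 in the triple mutant, 1227570 in the double mutant, 1294990 in daf-2 and 1304230 in WT. With the pools brought to equal summed FPKM the median difference moved up by 0.40, and 3159 genes differed upward and 784 downward. With the pools brought to an equal median ratio it moved up by 0.24, and 2671 genes differed upward and 1118 downward. Upward calls were thus 54.1% of all called differences as deposited, 80.1% at equal sums and 70.5% at equal medians. List medians below are read against the median of all genes, -0.15.

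**Figure D1:**
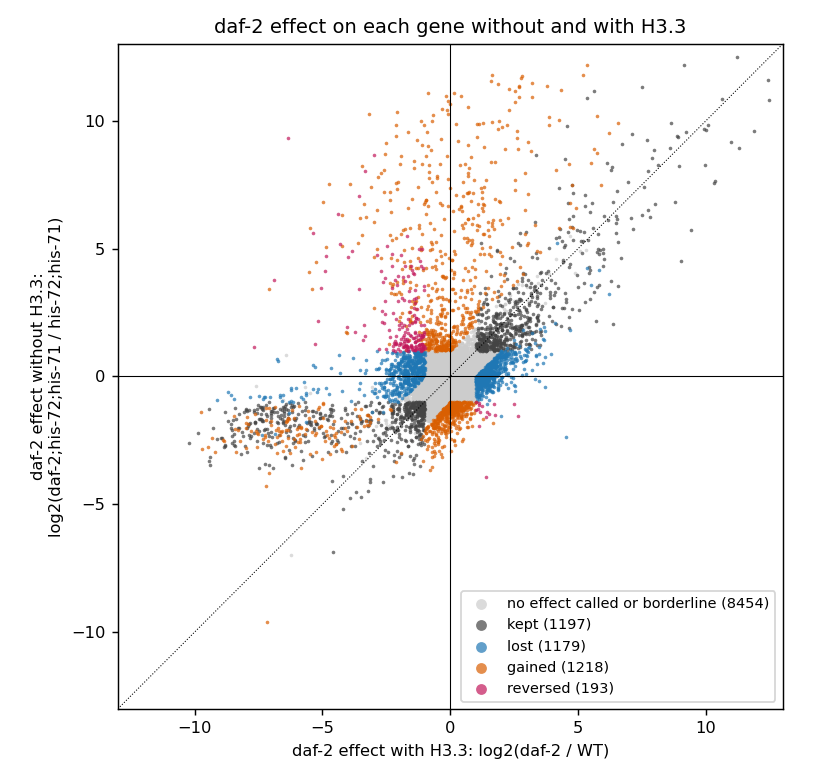
Each point is 1 of 12241 genes, with the log2 daf-2 effect with H3.3 (daf-2 over WT) across and without H3.3 (triple over double mutant) up. The dotted line marks equal effects, and colours mark lost (1179), gained (1218), reversed (193) and kept (1197) effects. A band of genes with deep falls with H3.3 has shallow falls without it, and gained rises reach further from 0 than gained falls.

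Every gene was put in 1 class. A daf-2 effect was lost where it was called with H3.3, not called without it, and the difference was at least 2-fold. It was gained where it was called only without H3.3 with the same minimum difference, and reversed where both effects were called in opposite directions. It was kept where both were called in the same direction. Lost effects numbered 651 rises (5.32%) and 528 falls (4.31%), together 1179 genes (9.63%). Gained effects numbered 635 rises (5.19%) and 583 falls (4.76%), together 1218 genes (9.95%). Reversed effects numbered 193 (1.58%). Of these, 177 (1.45%) were rises without H3.3 and falls with it, and 16 (0.131%) were falls without H3.3 and rises with it. Kept effects numbered 1197 (9.78%), namely 609 rises (4.98%) and 588 falls (4.8%). The size changed at least 2-fold in 482 of them (3.94%), which left 430 rises (3.51%) and 285 falls (2.33%) of similar size. In a further 1178 genes (9.62%) only 1 effect was called but the difference was under 2-fold, and in 7276 genes (59.4%) no effect was called. The class counts come from the same values as the effects, so levels within a class describe it. How many genes chance put into a class was not tested.

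**Figure D2:**
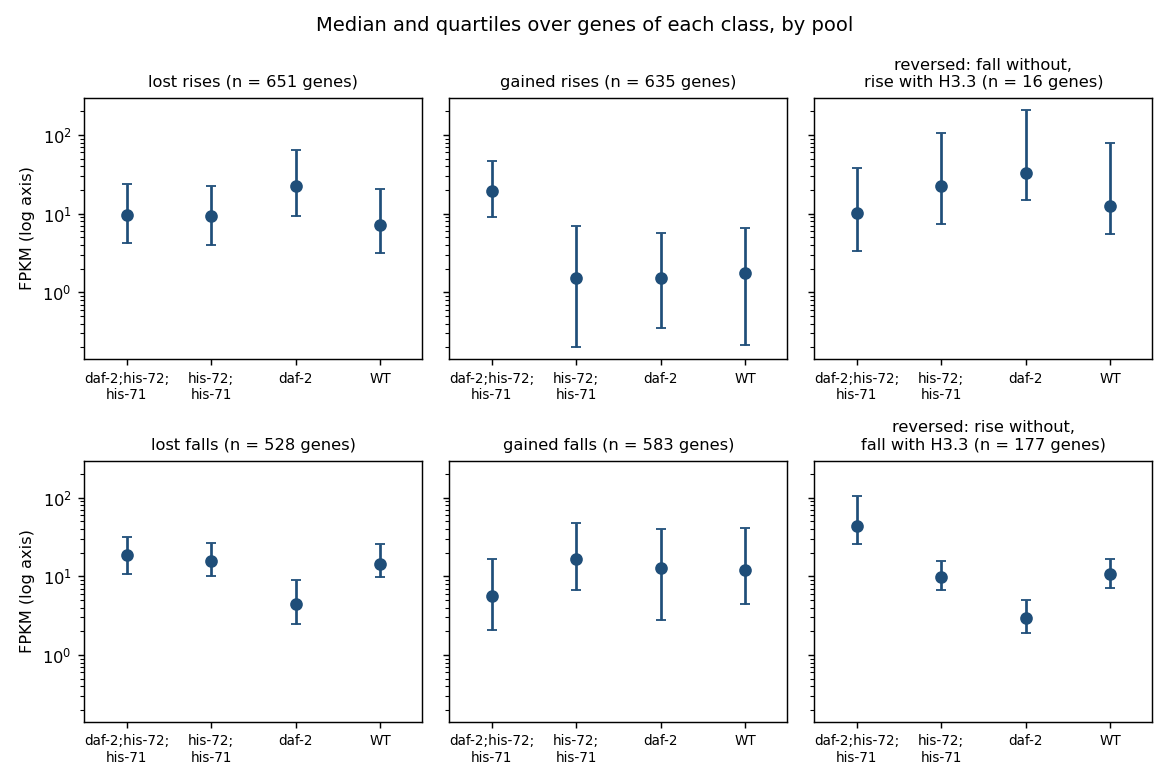
Points are the median FPKM (log axis) over the genes of a class in each pool, and bars run between the quartiles over genes. Lost rises stand highest in daf-2, lost falls lowest in daf-2, gained rises highest in the triple mutant, and the 177 genes that rise without and fall with H3.3 stand highest in the triple mutant and lowest in daf-2.

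The levels show in which pool each class departed from the rest. Lost rises had a median of 9.58 FPKM in the triple mutant, 9.24 in the double mutant, 22.1 in daf-2 and 7.18 in WT. In 569 of the 651 (87.4%) the triple mutant was within 2-fold of WT. Lost falls had a median of 18.7 FPKM in the triple mutant, 15.6 in the double mutant, 4.51 in daf-2 and 14.5 in WT, and in 449 of 528 (85.04%) the triple mutant was within 2-fold of WT. Among all genes compared the triple mutant was within 2-fold of WT in 74.7%, and among genes with no effect called in 95.6%. The high shares in the lost classes largely follow from their rule. It asks for no called effect between triple and double mutant, and the double mutant was mostly close to WT. The daf-2 pool was at least 2-fold above each of the other pools in 355 of the lost rises, and at least 2-fold below each of them in 468 of the lost falls. Gained rises had a median of 19.5 FPKM in the triple mutant, 1.505 in the double mutant, 1.52 in daf-2 and 1.74 in WT. In 596 of the 635 the triple mutant was at least 2-fold above each of the other pools. Gained falls had a median of 5.56 FPKM in the triple mutant, 16.37 in the double mutant, 12.7 in daf-2 and 11.9 in WT, and the triple mutant was at least 2-fold below each of the others in 227 of 583. The double mutant differed at least 2-fold from WT in 3.15% of all genes compared and in 18.3% of the gained rises.

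Among effects called with H3.3 the share that was kept went with their size. Of the rises with H3.3, 37.8% were lost, 35.4% kept and 0.929% reversed without it. Among rises of 2 to 4-fold 20.8% were kept, among those of 4 to 8-fold 58.7%, and among the 241 rises of 8-fold or more 85.1%. In most of the kept rises of 8-fold or more, however, the size changed at least 2-fold. Of the falls with H3.3, 35.1% were lost, 39.0% kept and 11.8% reversed. Among the 341 falls of 8-fold or more 78.01% were kept, but in 252 of these 266 genes the size changed at least 2-fold. Seen from the other side, 41.2% of the rises without H3.3 were gained, and among the 585 rises of 8-fold or more 59.8% were. Small effects lie nearest to the threshold, and the part of this in their turnover was not tested.

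**Figure D3:**
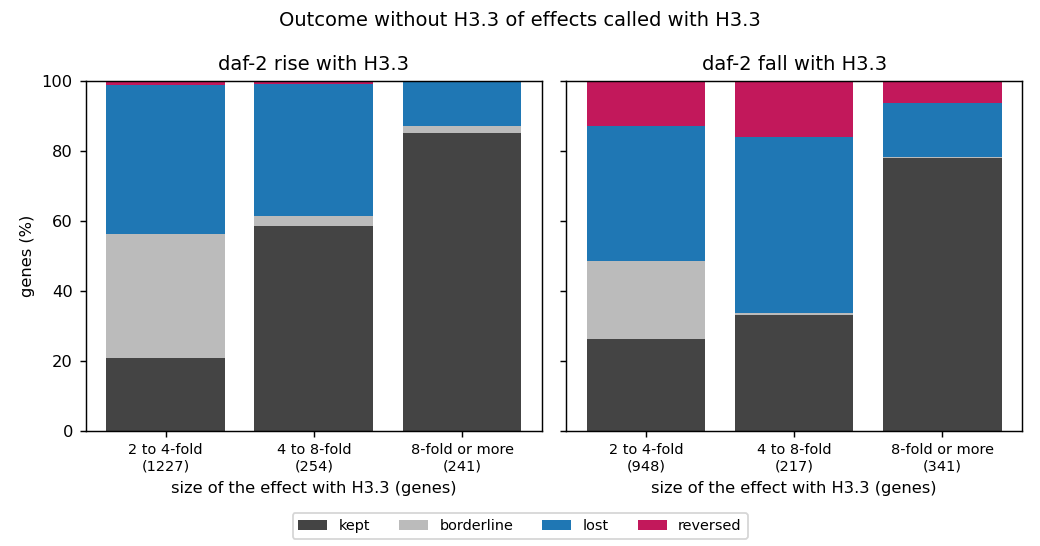
Stacked bars give the percentage of genes whose called daf-2 effect with H3.3 was kept, borderline, lost or reversed without H3.3, by the size of the effect with H3.3, with gene numbers under each bar. The kept share is 20.8% for rises of 2 to 4-fold and 85.1% for rises of 8-fold or more. Kept means the same direction, and most of the kept rises of 8-fold or more changed in size at least 2-fold.

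Lost rises included a C-type lectin gene and an immunoglobulin-domain gene. clec-52, a C-type lectin gene on chromosome IV (8167163 to 8168774), had 127 FPKM in the triple mutant, 135 in the double mutant, 272 in daf-2 and 27.7 in WT. The daf-2 pool was 9.82-fold above WT, whereas the triple and double mutants differed by under 1.1-fold and lay between those values. F46F2.3 on chromosome X had 243 FPKM in the triple mutant, 362 in the double mutant, 2411 in daf-2 and 415 in WT. Only daf-2 stood out, 5.81-fold above WT. zig-3, which encodes a protein with immunoglobulin domains, had 36.7 FPKM in the triple mutant, 19.8 in the double mutant, 199 in daf-2 and 12.96 in WT, so that a 15.4-fold effect with H3.3 stood against 1.85-fold without it. It became a kept but smaller rise under both rescalings. K02E7.6 had 28.1 FPKM in the triple mutant, 19.6 in the double mutant, 129 in daf-2 and 10.3 in WT. F35F10.7 had 3.203 FPKM in the triple mutant, 4.32 in the double mutant, 16.53 in daf-2 and 1.27 in WT. In both, daf-2 was the highest pool by more than 3-fold. F56A4.3 had 0.0129 FPKM in the triple mutant, 0.0668 in the double mutant, 433 in daf-2 and 19.02 in WT. It was close to 0 in both pools without H3.3, so the absence of a rise there rests on a gene that was hardly detected.

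Lost falls were led by cuticle and sperm genes. col-60, a cuticle collagen gene on chromosome I (7105319 to 7106924), had 26.4 FPKM in the triple mutant, 16.7 in the double mutant, 0.254 in daf-2 and 27.8 in WT. The daf-2 pool was 109.5-fold below WT, and the other pools lay within a factor of 2 of one another. col-120, another collagen gene, had 21.3 FPKM in the triple mutant, 15.8 in the double mutant, 0.588 in daf-2 and 24.5 in WT. msp-76, which encodes a major sperm protein, had 41.3 FPKM in the triple mutant, 71.3 in the double mutant, 0.401 in daf-2 and 40.7 in WT. In both, daf-2 was below 1 FPKM. C39B5.5 had 14.5 FPKM in the triple mutant, 11.6 in the double mutant, 0.628 in daf-2 and 16.15 in WT. ZK930.2 had 17.7 FPKM in the triple mutant, 10.6 in the double mutant, 1 in daf-2 and 14.03 in WT. In these 5 genes daf-2 was the lowest pool, at 1 FPKM or less, and every other pool was above 10 FPKM. The major sperm protein genes are near copies of one another, so their single values are uncertain.

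Gained rises included yolk and cuticle genes. vit-5, a yolk protein gene on chromosome X (3403471 to 3408605), had 1225 FPKM in the triple mutant, 0.951 in the double mutant, 0.791 in daf-2 and 3.35 in WT. The triple mutant was 1289-fold above the double mutant. ZC373.2 had 876 FPKM in the triple mutant, 1.72 in the double mutant, 2.18 in daf-2 and 3.98 in WT. Y62H9A.6 had 669 FPKM in the triple mutant, 0.6599 in the double mutant, 0.563 in daf-2 and 1.23 in WT. ZK813.1 had 489.9 FPKM in the triple mutant, 0.282 in the double mutant, 0.495 in daf-2 and 0.521 in WT. Each was below 5 FPKM in the other pools. D1054.10 on chromosome V had 515 FPKM in the triple mutant, 1.23 in the double mutant, 0.623 in daf-2 and 3.64 in WT, the same pattern. The genes shown from ZC373.2 to ZK813.1 lie on chromosome X, but X held 14.2% of all gained rises against 13.9% of the genes compared. col-183 had 552 FPKM in the triple mutant, 0.155 in the double mutant, 0.426 in daf-2 and 0.139 in WT. col-2, a collagen gene known for expression in dauer larvae, had 1351 FPKM in the triple mutant, 0.532 in the double mutant, 3.39 in daf-2 and 0.5302 in WT. col-37 had 1155 FPKM in the triple mutant, 0.4397 in the double mutant, 2.72 in daf-2 and 0.424 in WT. These collagen genes were about 3 to 6-fold higher in daf-2 than in WT too, but there both pools were under 5 FPKM. grl-23, a ground-like gene of the hedgehog-related family, had 480.3 FPKM in the triple mutant, 0.146 in the double mutant, 1.16 in daf-2 and 0.173 in WT. hil-7, a linker histone gene, had 150.2 FPKM in the triple mutant, 6.35 in the double mutant, 7.295 in daf-2 and 6.94 in WT, and it alone of these was above 5 FPKM in every pool. In 125 gained rises the effect with H3.3 was also at least 2-fold upward but under 5 FPKM, and in 127 it was at least 2-fold downward under 5 FPKM. With the other effect held within 1.5-fold, 232 gained rises were left.

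Gained falls were smaller. F10C1.9 had 4.59 FPKM in the triple mutant, 34.6 in the double mutant, 25.6 in daf-2 and 25.3 in WT. The triple mutant was 7.53-fold below the double mutant, while daf-2 and WT were nearly equal. F49E12.9 had 4.07 FPKM in the triple mutant, 51.4 in the double mutant, 20.7 in daf-2 and 36.4 in WT. F58G6.3 had 18.2 FPKM in the triple mutant, 158 in the double mutant, 81.8 in daf-2 and 127 in WT. dct-17 had 6.201 FPKM in the triple mutant, 35.8 in the double mutant, 15.03 in daf-2 and 13.5 in WT. The triple mutant was the lowest pool for each of the 4 genes, and the double mutant was the highest. In 129 of the 583 gained falls the difference was upward, because the effect with H3.3 was a larger fall between pools under 5 FPKM. The counts of these classes depend on scaling. Lost rises numbered 300 and gained falls 292 at equal summed FPKM, and 425 and 374 at an equal median ratio, while gained rises numbered 1151 and 857.

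Reversals went mostly 1 way, by a margin that depended on the thresholds. Rises without and falls with H3.3 numbered 177, and the opposite 16. With a minimum of 20 FPKM they numbered 27 and 9. At a ratio of 1.5 they were 416 and 157, and at a ratio of 3 they were 59 and 0. Of the 177 genes that rose without and fell with H3.3, the triple mutant was the highest pool in 174 and daf-2 the lowest in 175. vit-2, a yolk protein gene on chromosome X (5101032 to 5106173), had 2435 FPKM in the triple mutant, 6.02 in the double mutant, 1.95 in daf-2 and 15.4 in WT. It was 404-fold higher without H3.3 and 7.89-fold lower with it. perm-2, an eggshell permeability barrier gene on chromosome IV (1126791 to 1128848), had 1157 FPKM in the triple mutant, 8.68 in the double mutant, 0.862 in daf-2 and 10.2 in WT. gld-1, an RNA-binding regulator of germline development, had 194 FPKM in the triple mutant, 91.9 in the double mutant, 10.4 in daf-2 and 71.4 in WT. cyb-3, a B-type cyclin gene, had 256 FPKM in the triple mutant, 48.2 in the double mutant, 18.5 in daf-2 and 50.2 in WT. In each the triple mutant was the highest pool and daf-2 the lowest, with the double mutant and WT between them.

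The 16 opposite reversals, rises with H3.3 that became falls without it, had differences of 4.04-fold to 40.8-fold. The 40.8-fold difference belongs to F07C6.6, which had 0.364 FPKM in the triple mutant, 5.604 in the double mutant, 5.35 in daf-2 and 2.02 in WT. Here the triple mutant was far below the other pools, at under 1 FPKM. nas-3, an astacin metalloprotease gene, had 2.41 FPKM in the triple mutant, 7.06 in the double mutant, 27.6 in daf-2 and 4.47 in WT. col-147, a collagen gene, had 175 FPKM in the triple mutant, 526 in the double mutant, 1326 in daf-2 and 507 in WT. gst-24, a glutathione S-transferase gene, had 10.5 FPKM in the triple mutant, 27.2 in the double mutant, 47.99 in daf-2 and 17.6 in WT. In these 3 genes daf-2 was the highest pool. spp-17, a saposin-like gene, had 599 FPKM in the triple mutant, 1564 in the double mutant, 3515 in daf-2 and 1575 in WT. In all 16 the triple mutant was the lowest pool, and in 15 daf-2 was the highest. At equal summed FPKM 6 genes met this rule and at an equal median ratio 10, and gst-24 and spp-17 were lost rises at equal sums.

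**Figure D4:**
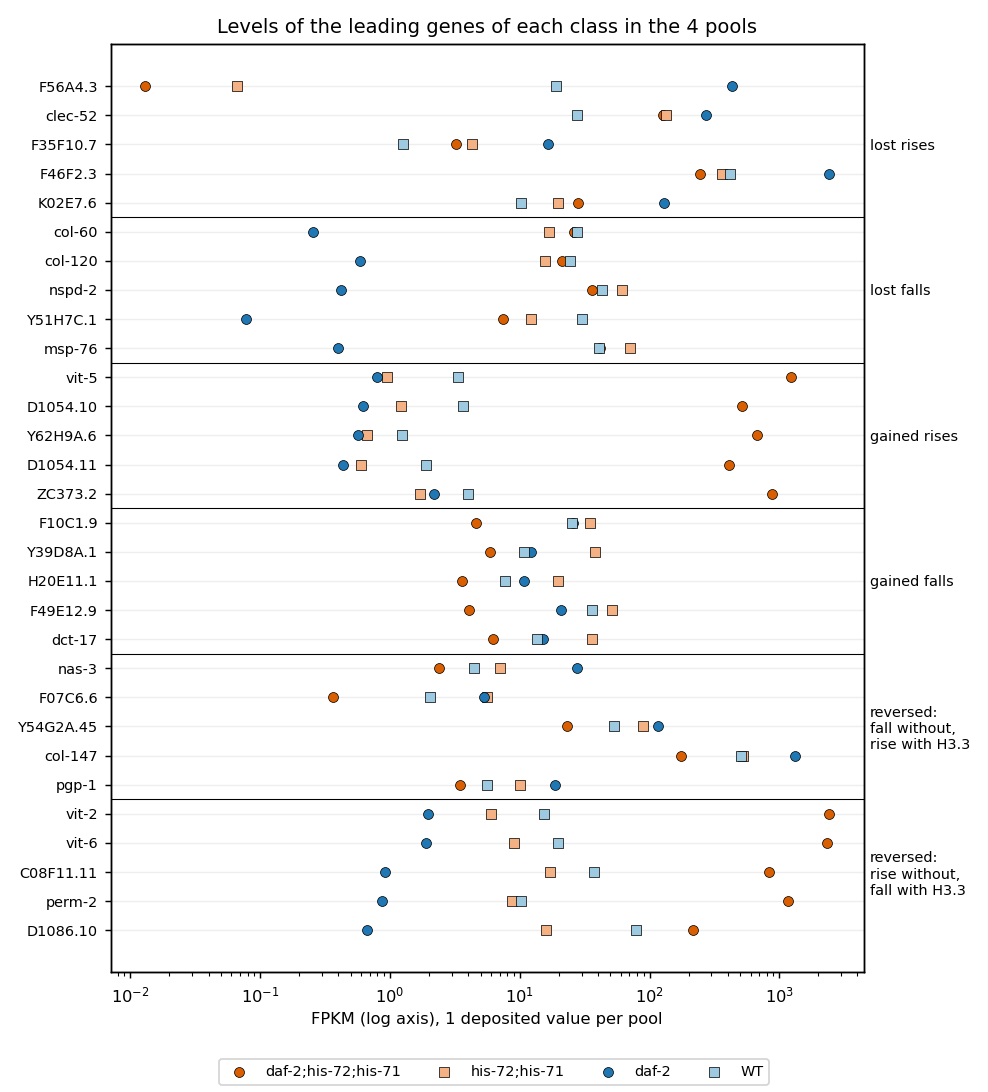
FPKM on a log axis for the first 5 genes of each class by the naming rule, with 1 point per pool. The daf-2 point (dark blue) is highest in the lost rises and lowest in the lost falls shown. The triple mutant point (dark orange) is highest in the gained rises and lowest in the gained falls shown. In the lower reversed set both lie at opposite ends. In clec-52 the WT point lies furthest from the rest, and in Y39D8A.1 and dct-17 the double mutant point does.

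Kept effects could also change in size. sip-1, a small heat shock gene, had 2013 FPKM in the triple mutant, 39.8 in the double mutant, 333 in daf-2 and 43.3 in WT, a rise of 50.6-fold without and 7.70-fold with H3.3. hsp-12.6, a small heat shock gene and known DAF-16 target, had 77.6 FPKM in the triple mutant, 2.55 in the double mutant, 34.9 in daf-2 and 9.97 in WT. Larger rises without H3.3 were counted for 71 genes (0.58%) and smaller ones for 108 (0.882%). ins-33, an insulin-like peptide gene, had 90.2 FPKM in the triple mutant, 9.06 in the double mutant, 567 in daf-2 and 11.6 in WT, a rise of 9.95-fold without and 49.0-fold with H3.3. EGAP4.1 had 19.9 FPKM in the triple mutant, 4.42 in the double mutant, 159 in daf-2 and 3.07 in WT. Among kept falls 37 were larger (0.302%) and 266 smaller (2.17%) without H3.3. pmt-2 and sams-1 encode enzymes on the route from methionine to phosphatidylcholine, and both fell further without H3.3. sams-1, the S-adenosylmethionine synthetase gene, had 93.2 FPKM in the triple mutant, 594 in the double mutant, 268 in daf-2 and 589.9 in WT. pmt-2, the phosphoethanolamine methyltransferase gene, had 135 FPKM in the triple mutant, 844 in the double mutant, 446 in daf-2 and 915 in WT. The kept falls that were smaller had medians of 3.98 FPKM in the triple mutant, 13.6 in the double mutant, 0.194 in daf-2 and 9.95 in WT. bli-6, a cuticle collagen gene, had 74.4 FPKM in the triple mutant, 178 in the double mutant, 1.599 in daf-2 and 406 in WT. Here the daf-2 level was low and the triple mutant level was intermediate.

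The classes were then read over 45 gene lists, which held 1677 of the genes compared. Counts over a list carry no test and are to be read against the shares of all genes given above. For rescaled counts the values of all genes were 3159 upward and 784 downward of 12555 at equal summed FPKM. At an equal median ratio they were 2671 and 1118 of 12338. Rescaling shifts the difference of every gene alike, so a balance that turns with it is no result about the list. Among the genes named from the lists, acs-1, akt-1, bli-2, daf-12, elo-5, far-3, him-3, nhr-85 and sod-3 share their listed locus with an overlapping gene, so their values are uncertain. Of 30 insulin-like peptide genes compared, the ligands of DAF-2, 12 kept a rise without H3.3, 3 lost one and 5 gained one. Their median effect was 1.62 without and 1.86 with H3.3. ins-16 had 9.701 FPKM in the triple mutant, 0.183 in the double mutant, 54.1 in daf-2 and 0.0803 in WT. ins-23 had 13.6 FPKM in the triple mutant, 1.33 in the double mutant, 1.35 in daf-2 and 1.99 in WT. ins-7, known to be repressed by DAF-16, had 16.44 FPKM in the triple mutant, 8.57 in the double mutant, 1.65 in daf-2 and 9.26 in WT, a lost fall as deposited and a reversal under both rescalings. Differences numbered 6 upward and 9 downward as deposited, and 6 and 6 at equal sums.

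Among core components between receptor and transcription factor, 15 were compared, with medians of 0.62 without and 0.14 with H3.3. The median difference per gene was -0.23 as deposited and 0.15 at equal sums, so its sign depends on the scaling. The kinase genes pdk-1 and akt-1 were kept rises. pdk-1 had 18.3 FPKM in the triple mutant, 5.65 in the double mutant, 32.3 in daf-2 and 5.48 in WT. akt-1 had 125 FPKM in the triple mutant, 53.7 in the double mutant, 134 in daf-2 and 50.95 in WT. daf-16, the FOXO factor itself, had 89.01 FPKM in the triple mutant, 73.6 in the double mutant, 139 in daf-2 and 71.3 in WT, under 2-fold in both backgrounds.

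The textbook DAF-16-induced genes were mostly kept. Of 26 compared, 19 were higher in the triple mutant without H3.3 and 24 in daf-2 with it. All 19 were kept rises, and 2 rises were lost. The medians were 2.42 without and 2.35 with H3.3. mtl-1, a metallothionein gene, had 457 FPKM in the triple mutant, 1.21 in the double mutant, 689 in daf-2 and 2.87 in WT. lys-7, a lysozyme gene, had 2132 FPKM in the triple mutant, 40.6 in the double mutant, 1095 in daf-2 and 35.7 in WT. sod-3, a mitochondrial superoxide dismutase gene, had 66.5 FPKM in the triple mutant, 2.38 in the double mutant, 166 in daf-2 and 2.95 in WT. All 3 were high with the daf-2 mutation in both backgrounds. The lost rises were those of mtl-2 and tps-1. mtl-2, the second metallothionein gene, had 113 FPKM in the triple mutant, 109 in the double mutant, 203 in daf-2 and 56.3 in WT. tps-1, a trehalose synthesis gene, had 26.002 FPKM in the triple mutant, 14.6 in the double mutant, 52.3 in daf-2 and 13.8 in WT. The tps-1 rise was kept under both rescalings. The kept rises were smaller without H3.3 in 3 genes, far-3, gst-10 and sod-3, and larger in 4. The median difference of the list was -0.30 as deposited, -0.07 at an equal median ratio and 0.08 at equal sums, so its sign depends on the scaling.

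Of the 7 DAF-16-repressed genes compared, 3 kept a fall, 1 lost it and 1 gained it, and 2 went the other way. dod-24 had 11.4 FPKM in the triple mutant, 75.8 in the double mutant, 3.71 in daf-2 and 27.4 in WT and kept its fall, while dod-23 had 25.7 FPKM in the triple mutant, 0.339 in the double mutant, 0.0481 in daf-2 and 0.474 in WT and was high in the triple mutant alone. T24B8.5, also in this list, was a kept rise with 160.3 FPKM in the triple mutant, 7.14 in the double mutant, 154 in daf-2 and 7.19 in WT.

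The dauer hormone genes leaned downward. Of 13 genes of the TGF-beta and steroid branches, 6 had a difference of at least 2-fold downward and 0 upward, where 15% and 17.7% of all genes did, and 3 and 0 did under either rescaling. All 13 differences were negative as deposited. daf-7, the TGF-beta ligand that prevents dauer entry, had 18.7 FPKM in the triple mutant, 9.82 in the double mutant, 45.7 in daf-2 and 11.3 in WT. daf-12, the nuclear receptor of the steroid branch, had 60.5 FPKM in the triple mutant, 31.98 in the double mutant, 165 in daf-2 and 28.3 in WT. Both were lost rises as deposited and kept rises under both rescalings, since their ratios without H3.3 stood just under 2. daf-9, the cytochrome P450 that makes the DAF-12 ligand, had 3.53 FPKM in the triple mutant, 8.24 in the double mutant, 6.31 in daf-2 and 5.44 in WT. Here the double mutant was the highest pool and the triple mutant the lowest, though no effect was called at equal sums.

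**Figure D5:**
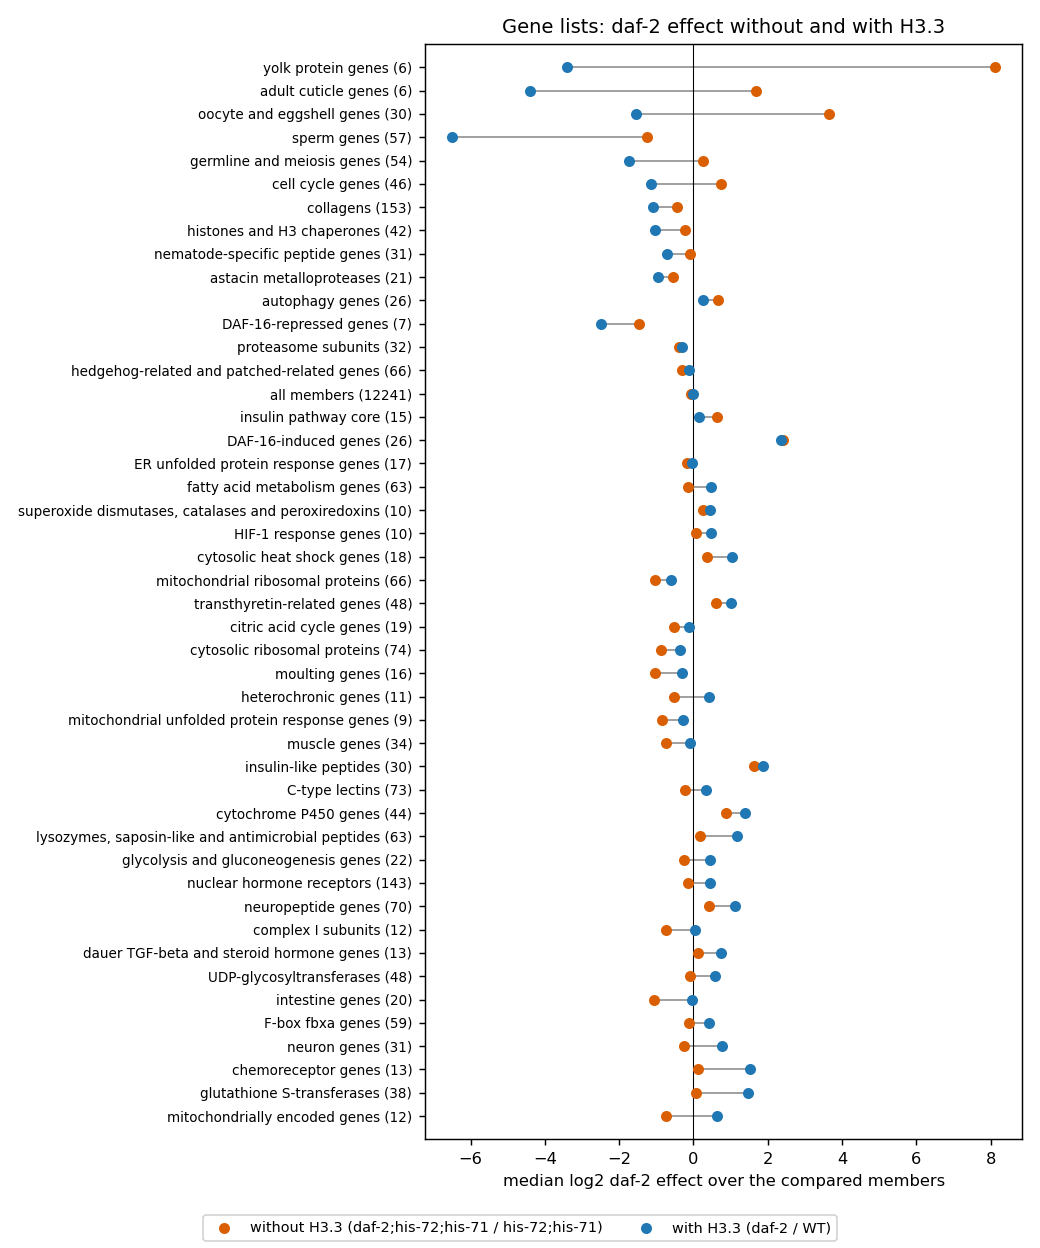
Each line is a gene list with the number of genes compared, and its points give the median log2 daf-2 effect without H3.3 (orange) and with H3.3 (blue), sorted by the median difference. Yolk, adult cuticle, oocyte and sperm lists stand at the top with positive differences, and the 12 mitochondrially encoded genes and the 38 glutathione S-transferases stand at the bottom.

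Genes of reproduction differed upward under every scaling. All 6 yolk protein genes differed upward, with medians of 8.12 without and -3.41 with H3.3. vit-6 had 2348 FPKM in the triple mutant, 9.05 in the double mutant, 1.91 in daf-2 and 19.5 in WT. vit-1, the lowest of the family in the triple mutant, had 64.7 FPKM in the triple mutant, 3.72 in the double mutant, 0.201 in daf-2 and 5.92 in WT. Their summed level was 6259 FPKM in the triple mutant, 20.6 in the double mutant, 5.01 in daf-2 and 47.1 in WT. Yolk is made in the adult hermaphrodite intestine and taken up by oocytes through the receptor rme-2, which had 110.04 FPKM in the triple mutant, 6.93 in the double mutant, 2.305 in daf-2 and 6.18 in WT. Of 30 oocyte and eggshell genes 28 differed upward and 0 downward, with medians of 3.65 without and -1.54 with H3.3. pos-1, a zinc finger gene of the early embryo, had 340.4 FPKM in the triple mutant, 12.8 in the double mutant, 2.62 in daf-2 and 10.05 in WT. oma-1, which is needed for oocyte maturation, had 96.1 FPKM in the triple mutant, 16.3 in the double mutant, 2.06 in daf-2 and 13.3 in WT. The summed level of the list was 5511 FPKM in the triple mutant, 355.8 in the double mutant, 238.5 in daf-2 and 324.7 in WT.

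Sperm genes behaved otherwise. Of 57 compared, 38 were lower in the triple mutant without H3.3 and 49 lower in daf-2 with it, and 0 were higher in either. The medians were -1.26 without and -6.50 with H3.3, so that 52 differed upward although none was called higher in the triple than in the double mutant. Of the falls 15 were lost, and 33 were kept, 32 of these at smaller size. gsp-3, a sperm phosphatase gene, had 6.59 FPKM in the triple mutant, 22.9 in the double mutant, 0.0858 in daf-2 and 16.9 in WT. The summed level was 751 FPKM in the triple mutant, 1702 in the double mutant, 55.2 in daf-2 and 1109.8 in WT. In late fourth-stage hermaphrodites sperm are made before oocytes. The triple mutant pool thus had high oocyte and yolk genes with intermediate sperm genes, and the daf-2 pool had low levels of both.

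Germline and meiosis genes were chiefly lost falls. Of 54 compared, 4 were lower in the triple mutant without H3.3 and 44 in daf-2 with it, 35 falls were lost and 5 were reversed. him-3, a meiotic chromosome axis gene, had 41.2 FPKM in the triple mutant, 49.6 in the double mutant, 3.72 in daf-2 and 42.8 in WT. daz-1, an RNA-binding gene of oogenesis, had 87.3 FPKM in the triple mutant, 44.5 in the double mutant, 9.88 in daf-2 and 46.5 in WT. Among 46 cell cycle genes 17 falls were lost and 10 reversed, and 40 differed upward against 0 downward. cdk-1, the mitotic kinase gene, had 98.2 FPKM in the triple mutant, 54.97 in the double mutant, 19.2 in daf-2 and 47.2 in WT. mcm-2, of the replicative helicase, had 51.95 FPKM in the triple mutant, 25.9 in the double mutant, 12.7 in daf-2 and 28.3 in WT. pcn-1, the sliding clamp gene, had 236 FPKM in the triple mutant, 109 in the double mutant, 52.7 in daf-2 and 111 in WT. In these the double mutant and WT were close, with the triple mutant above and daf-2 below them. Under both rescalings the cdk-1 and daz-1 falls were reversed. In bulk RNA of whole worms, fewer cells of a type and less RNA per cell cannot be told apart. The part of these yolk, oocyte, sperm and cell cycle levels in the other classes was not tested. Whether the pools differed in developmental timing was not tested either. The yolk, oocyte, sperm, germline, cell cycle and adult cuticle lists held 199 of the 12241 genes compared. They held 67 of the 528 lost falls, 22 of the 635 gained rises and 32 of the 177 genes that rose without and fell with H3.3. Without these lists, lost falls numbered 461, reversals 161 and gained rises 613. Such short lists could remove few genes from most classes, so these counts do not tell how far stage and germline content enters the classes.

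Histone genes differed mostly upward, at each scaling. Of 42 histone and H3 chaperone genes compared, 16 differed upward and 2 downward, and 9 falls were lost. his-74, another H3.3-type gene, had 202 FPKM in the triple mutant, 149.7 in the double mutant, 49.9 in daf-2 and 160.2 in WT. hil-4, a linker histone gene, had 117 FPKM in the triple mutant, 88.4 in the double mutant, 24.4 in daf-2 and 115 in WT. htz-1, the H2A.Z gene, had 392 FPKM in the triple mutant, 253 in the double mutant, 134 in daf-2 and 279 in WT. Each of these 3 genes was lowest in daf-2. his-70, also of the H3.3 family, had 3.36 FPKM in the triple mutant, 25.3 in the double mutant, 0.312 in daf-2 and 17.7 in WT, a fall in both backgrounds. Core histone genes are near copies of one another, so single values of them are uncertain.

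Among cuticle genes, all 6 adult cuticle genes differed upward, with a summed level of 271.4 FPKM in the triple mutant, 375.3 in the double mutant, 6.92 in daf-2 and 777.3 in WT. col-19, the standard marker of the adult cuticle, had 158 FPKM in the triple mutant, 4.603 in the double mutant, 1.29 in daf-2 and 7.099 in WT. bli-2 had 18.95 FPKM in the triple mutant, 141 in the double mutant, 3.403 in daf-2 and 272 in WT. The col-19 level was thus raised in the triple mutant alone, while bli-2 was below the double mutant there. Of 153 collagen genes, 77 differed upward and 14 downward, and 28 gained a rise. Collagens thus fell into sets with opposite behaviour, as with col-2 and col-183 on one side and col-147 on the other. Of 16 moulting genes 2 differed downward and 0 upward, and of 11 heterochronic genes 1 did, but 0 of either list at equal sums. lin-14, which times larval stages, had 19.3 FPKM in the triple mutant, 27.6 in the double mutant, 34.6 in daf-2 and 25.8 in WT. nhr-23, a moulting regulator, had 22.3 FPKM in the triple mutant, 38.6 in the double mutant, 43.3 in daf-2 and 42.5 in WT. Moulting genes as a list had a median effect of -1.02 without and -0.31 with H3.3.

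Glutathione S-transferase and UDP-glycosyltransferase genes differed downward more often than upward under every scaling, and cytochrome P450 genes were mixed. Of 38 glutathione S-transferase genes compared, 26 differed downward (68.4%) and 0 upward. Medians were 0.07 without and 1.48 with H3.3, and the summed level was 2055 FPKM in the triple mutant, 1758 in the double mutant, 5777 in daf-2 and 1809 in WT. Rises were lost in 11 genes and kept in 9, of which 5 were smaller. gst-20 had 60.1 FPKM in the triple mutant, 40.8 in the double mutant, 281 in daf-2 and 39.1 in WT. gst-42 had 65.1 FPKM in the triple mutant, 68.5 in the double mutant, 205 in daf-2 and 64.1 in WT. gst-4, a well-known SKN-1 target and a kept rise, had 132 FPKM in the triple mutant, 40.97 in the double mutant, 345 in daf-2 and 37.9 in WT. The 3 genes were highest in daf-2. gst-26 had 50.9 FPKM in the triple mutant, 161 in the double mutant, 185 in daf-2 and 135 in WT, a gained fall. At equal summed FPKM 15 of 39 glutathione S-transferase genes differed downward and 0 upward, and at an equal median ratio 17 of 38 and 0. Of 48 UDP-glycosyltransferase genes 22 differed downward and 2 upward, against 12 and 6 of 51 at equal sums and 17 and 4 of 49 at an equal median ratio. ugt-39 had 6.91 FPKM in the triple mutant, 10.4 in the double mutant, 19.7 in daf-2 and 6.69 in WT, a lost rise. Of 44 cytochrome P450 genes 12 differed downward and 8 upward, against 6 and 11 of 47 at equal sums, where all genes shifted upward. cyp-35B1, a DAF-16-induced P450 gene, kept its rise with 27.9 FPKM in the triple mutant, 0.3896 in the double mutant, 33.8 in daf-2 and 0.368 in WT.

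Stress genes outside detoxification were mixed. Of 18 cytosolic heat shock genes 3 differed upward and 4 downward, against 3 and 1 at equal sums. hsp-16.2 had 45.9 FPKM in the triple mutant, 13.1 in the double mutant, 1232 in daf-2 and 264 in WT. The pools without H3.3 were far below the others here, but the ratio within each background was similar, at 3.49-fold without and 4.67-fold with H3.3. F44E5.5, of the HSP70 family, had 1.095 FPKM in the triple mutant, 0.795 in the double mutant, 35.03 in daf-2 and 10.2 in WT, a lost rise in which both pools without H3.3 were low. It has a near copy, so its value is uncertain. In the lists of ER (17 genes) and mitochondrial (9 genes) unfolded protein response genes and of HIF-1 response genes (10 genes) 0 differed by 2-fold under any of the 3 scalings. hsp-4, the ER chaperone BiP, had 159.8 FPKM in the triple mutant, 243 in the double mutant, 395 in daf-2 and 329 in WT. Of 10 superoxide dismutases, catalases and peroxiredoxins 2 differed downward and 1 upward, against 0 and 1 under either rescaling. sod-1, the cytosolic enzyme, had 345 FPKM in the triple mutant, 297 in the double mutant, 822 in daf-2 and 338 in WT, a lost rise as deposited that was borderline under both rescalings. Among 63 lysozyme, saposin-like and antimicrobial genes 18 differed downward and 10 upward, and among 73 C-type lectins 27 and 14. At equal sums the counts were 12 and 15 of 66 and 16 and 20 of 75. Of the called differences among all genes, 80.1% were upward at that scaling. spp-12 had 114 FPKM in the triple mutant, 0.684 in the double mutant, 27.3 in daf-2 and 1.44 in WT. ilys-3 had 62.9 FPKM in the triple mutant, 1.29 in the double mutant, 9.82 in daf-2 and 1.499 in WT, both larger rises without H3.3.

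Neuron genes differed downward by small amounts as deposited, and few passed 2-fold downward after rescaling, which shifts all genes upward. Of 31 compared, 17 differed downward and 0 upward, with medians of -0.25 without and 0.76 with H3.3, and 6 rises were lost. ric-4, the SNAP-25 gene of synaptic vesicle fusion, had 58.3 FPKM in the triple mutant, 61.5 in the double mutant, 129.8 in daf-2 and 52.2 in WT. unc-25, the glutamate decarboxylase gene of GABA neurons, had 29.7 FPKM in the triple mutant, 34.2 in the double mutant, 65.3 in daf-2 and 29.5 in WT. unc-31, of dense core vesicle release, had 9.53 FPKM in the triple mutant, 8.04 in the double mutant, 21.1 in daf-2 and 7.74 in WT. In all 3 the daf-2 pool stood apart and the others were close. Of 70 neuropeptide genes 5 were higher in the triple mutant without H3.3 and 41 higher in daf-2 with it, 9 of the rises were lost and 32 genes were borderline. flp-20 had 25.4 FPKM in the triple mutant, 28.04 in the double mutant, 44.8 in daf-2 and 19.6 in WT. Scaling decides these counts. It does not decide how a list stood against all genes. The median difference of the neuron list less that of all genes was -0.86 as deposited, and rescaling shifts both alike. At equal summed FPKM 1 neuron gene differed downward and 1 upward, against 784 and 3159 of all 12555 genes. There unc-25, unc-31 and flp-20 were borderline, and 22 neuropeptide genes kept a rise. Of 143 nuclear hormone receptor genes 40 differed downward and 2 upward as deposited, against 11 and 2 at equal sums. nhr-85 had 17.8 FPKM in the triple mutant, 16.03 in the double mutant, 102 in daf-2 and 21.1 in WT, a lost rise under all scalings. Of 34 muscle genes 2 differed downward, against 0 at equal sums, and of 20 intestine genes 9, against 2. pept-1, the intestinal peptide transporter gene, had 29.4 FPKM in the triple mutant, 169 in the double mutant, 49.1 in daf-2 and 137 in WT, a fall that was larger without H3.3 as deposited and of similar size under both rescalings. myo-3, a muscle myosin gene, had 37.99 FPKM in the triple mutant, 69.5 in the double mutant, 83.4 in daf-2 and 75.1 in WT.

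Among metabolic genes, members of one list often went different ways. elo-6, a fatty acid elongase gene, had 648 FPKM in the triple mutant, 803 in the double mutant, 2654 in daf-2 and 728 in WT. acs-1, an acyl-CoA synthetase gene, had 67.9 FPKM in the triple mutant, 89.7 in the double mutant, 307 in daf-2 and 83.1 in WT. Both act in branched-chain fatty acid metabolism and were lost rises, and elo-5, the elongase gene next to elo-6 on chromosome IV, was a reversal with 161 FPKM in the triple mutant, 448 in the double mutant, 1019 in daf-2 and 355 in WT. Of 63 fatty acid genes 14 differed downward and 8 upward, against 8 and 11 at equal sums, where all genes shifted upward. gpi-1, of glycolysis, had 119.2 FPKM in the triple mutant, 144 in the double mutant, 294 in daf-2 and 138 in WT. gpd-1, a glyceraldehyde-3-phosphate dehydrogenase gene with close copies, had 97.9 FPKM in the triple mutant, 15.96 in the double mutant, 8.002 in daf-2 and 15.1 in WT. Of 74 cytosolic ribosomal protein genes 1 differed upward and 1 downward. These were rpl-11.1, with 1130.1 FPKM in the triple mutant, 1466 in the double mutant, 499 in daf-2 and 1566 in WT, and its paralog rpl-11.2, with 1369.7 FPKM in the triple mutant, 3471 in the double mutant, 3070.4 in daf-2 and 3538 in WT. Of 19 citric acid cycle genes 1 differed upward and 2 downward, against 2 and 0 under either rescaling. sdha-2 had 38.9 FPKM in the triple mutant, 38.9 in the double mutant, 10.2 in daf-2 and 33.3 in WT, the upward case. The downward cases were idh-1 and idh-2, isocitrate dehydrogenase genes. idh-1 had 257 FPKM in the triple mutant, 611 in the double mutant, 631 in daf-2 and 694 in WT. idh-2 had 37.3 FPKM in the triple mutant, 74.8 in the double mutant, 79.7 in daf-2 and 75.7 in WT. Both were gained falls close to the threshold. Of 32 proteasome subunits 1 differed, rpn-6.2, with 10.2 FPKM in the triple mutant, 19.8 in the double mutant, 3.75 in daf-2 and 15.9 in WT. For rpl-11.1, sdha-2 and rpn-6.2 daf-2 was the lowest pool, below WT, and by the rule the effect was lost without H3.3. The rpn-6.2 fall without H3.3 stood just under 2-fold. All 12 mitochondrially encoded genes had a negative difference, and 10 were past 2-fold. Of the 12, 7 share their listed locus with another gene, so those values are uncertain. nduo-2, a complex I subunit gene, had 15.2 FPKM in the triple mutant, 48.7 in the double mutant, 66.3 in daf-2 and 38.6 in WT. Their summed level was 14949 FPKM in the triple mutant, 23361 in the double mutant, 25794 in daf-2 and 18198 in WT, and at equal summed FPKM 7 of 12 differed downward. Of 26 autophagy genes 2 differed upward and 0 downward. epg-6 had 69.1 FPKM in the triple mutant, 35.97 in the double mutant, 38.99 in daf-2 and 41.6 in WT, an upward difference just past 2-fold with no effect called in either background as deposited and a gained rise under both rescalings.

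Families of nematode-specific or expanded genes were also mixed. Of 66 hedgehog-related and patched-related genes 17 differed upward and 9 downward, 10 gained a rise, and the upward side stayed ahead under both rescalings. grl-9, another ground-like gene, had 81.2 FPKM in the triple mutant, 0.127 in the double mutant, 1.65 in daf-2 and 0.272 in WT. Of 31 nematode-specific peptide genes outside the sperm list 13 differed upward and 5 downward, and of 21 astacin metalloproteases 5 and 1. Of 48 transthyretin-related genes 8 differed upward and 9 downward, against 8 and 1 at equal sums. ttr-50 had 119.05 FPKM in the triple mutant, 0.423 in the double mutant, 0.598 in daf-2 and 0.3601 in WT, high in the triple mutant alone. Of 59 F-box genes of the fbxa family 9 differed upward and 28 downward, against 19 and 15 of 66 at equal sums, where all genes shifted upward. Only 13 of 1339 chemoreceptor genes could be compared. Of these 1 differed upward and 7 downward, against 3 and 5 of 16 at equal sums.

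The classes were not spread evenly over the chromosomes. Chromosome X held 13.9% of the genes compared, but 4.92% of lost falls (26 genes) and 6.21% of the genes that rose without and fell with H3.3 (11 genes). The smaller kept falls held 3 X-linked genes among 266. Chromosome V held 19.8% of the genes compared, 30.6% of lost rises and 35.6% of kept rises of similar size. Chromosome I held 16.47% of the genes compared and 23.7% of lost falls. The median difference was -0.45 on X, with 147 genes upward and 294 downward, and 0.06 on I, with 446 upward and 196 downward. Relative to the median of all genes X stood 0.31 lower. Rescaling shifts the difference of every gene alike. The offset was therefore bound to stay nearly the same at the other scalings, and they are no check of it. The gained rises on X, 90 of 635 (14.2%), were close to the share of X among the genes compared. Sperm and germline genes are known to be scarce on X in this species, and their part in the offset was not tested. With no replicate values the offset has no error estimate.

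The same genes had their own values in the nuo-6 pools, which share WT and the double mutant with the comparison above, so the sets are not independent. The qm200 allele of nuo-6 affects a mitochondrial complex I subunit, and its H3.3 difference was taken likewise, from the nuo-6 triple mutant over the double mutant less nuo-6 over WT. The median difference in these pools was 0.13 for the lost rises, -0.79 for the lost falls, -0.86 for the gained rises, -0.58 for the gained falls and -0.12 over all genes. For the 177 genes that rose without and fell with H3.3 it was -1.48. vit-2 had 2.11 FPKM in the nuo-6 triple mutant and 604.6 in nuo-6. col-19 had 3.47 FPKM in the nuo-6 triple mutant and 1194 in nuo-6. In these genes the high level thus appeared with H3.3 in the nuo-6 background and without H3.3 in the daf-2 background. col-2, by contrast, had 0.515 FPKM in the nuo-6 triple mutant and 1.11 in nuo-6, and was high in the daf-2 triple mutant alone.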

How the data were processed

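RNA from whole late fourth-stage worms was sequenced with standard Illumina libraries, per the labels. The authors deposited 1 table of FPKM values per genotype. Of the tools, the submitters' processing notes give Cuffdiff and Cufflinks, STAR and FastQC, with no version. How the 5 replicates were combined and the genome build are not given in the sources used here. Of the 30 samples in 6 genotypes, 20 in 4 were compared, and the nuo-6 pools are given beside them. Effects are log2 ratios of FPKM as deposited, with no pseudocount and no test (python 3.11.15, pandas 2.3.3, numpy 2.4.6). Of the low values, 22.96% to 26.98% lay within 0.1 of a whole multiple of a common step, against 20% by construction, so reads could not be recovered and depth and precision are unknown. Coordinates are those of the authors' tables.

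The members and lists were chosen with earlier results of these data known. A pattern for the mitochondrially encoded list was corrected after the files were read, and 1 list entry was not found. Named genes are his-71, his-72 and daf-2, the 8 genes per class and direction with the largest difference on log2(FPKM + 1) outside shared loci, and up to 4 genes per list with the largest such difference, with some left out for length. No fold is given for a gene under 0.1 FPKM in a pool. Named outside this rule, after their values were seen, are akt-1, bli-2, cdk-1, cyp-35B1, daf-16, dod-24, gsp-3, gst-4, gst-42, his-70, his-74, hsp-16.2, htz-1, lys-7, mcm-2, mtl-1, mtl-2, oma-1, pcn-1, pept-1, rme-2, T24B8.5, tps-1, unc-31 and vit-1. Alternatives changed the scaling, the ratio, the FPKM minimum, the pseudocount, the treatment of genes at 0, shared loci and stage lists. A result for a member of the insulin pathway core list is not reported here.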

Additional observations from a re-analysis of the deposited data

Results flagged for a closer look

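In 3 lists the median daf-2 effect was at least 2-fold upward without H3.3 and at least 2-fold downward with it. The median difference was 11.66 for the 6 yolk protein genes, 5.35 for the 30 oocyte and eggshell genes and 6.42 for the 6 adult cuticle genes, on the log2 scale. With 1 value per genotype, these differences between the backgrounds were not tested. The germline and meiosis list (0.25 without and -1.74 with H3.3) and the cell cycle list (0.73 and -1.14) had medians of the same signs, but under 2-fold without H3.3. The summed level of the adult cuticle list was 271.4 FPKM in the triple mutant, 375.3 in the double mutant, 6.92 in daf-2 and 777.3 in WT, so its median rise without H3.3 did not go with a higher sum. Of its 6 genes 3 were called higher and 3 lower without H3.3, so that median lies between opposite groups.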

How the results depend on the processing

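No paired analysis was possible because each genotype has 1 deposited value per gene, and for the same reason no replicate could be left out. The sign of the median difference turned with the scaling for all genes (-0.15 as deposited, 0.09 at equal medians, 0.25 at equal sums) and for 5 lists: DAF-16-induced, insulin core, ER unfolded protein response, hedgehog-related and proteasome genes. The excess of upward differences (2170 against 1840) turned at a ratio of 1.5 (3093 against 3730) and with at least 1 FPKM in all 4 pools (1381 against 1782). Scaling to equal summed FPKM gave 784 downward differences, 300 lost rises, 1151 gained rises and 292 gained falls, and an equal median ratio to WT gave 1118 downward differences, 425 lost rises and 374 gained falls. With a ratio of 1.5 there were 1422 lost rises, 1292 gained falls, 573 reversals and 2246 kept effects, and with a ratio of 3 there were 156, 198, 59 and 596, with 1501 upward and 486 downward differences. With a minimum of 20 FPKM there were 1118 upward and 1058 downward differences, 376 lost rises, 193 lost falls, 286 gained falls, 36 reversals and 610 kept effects, and with 1 FPKM 2336 kept effects. A pseudocount of 1 FPKM gave 371 gained falls, and 375 with genes at 0 kept. With at least 1 FPKM in all 4 pools there were 302 gained rises. With the other effect within 1.5-fold, 342 lost falls, 232 gained rises and 358 gained falls were left. Leaving out shared loci, or the stage and germline lists, moved no count past 1.5 times. The stage and germline lists held only 199 of the genes compared, so leaving them out could move most counts little. Of the genes in each class as deposited, 60.1% of lost, 74.1% of gained, 94.3% of reversed and 83.0% of kept effects had the same class at equal sums. Unknown depth limits the genes near 0 FPKM most. Promoter motifs were not analysed here.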
